A study of Saccharomyces cerevisiae W303 with 16 samples.

Results

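Medium extensions are stretches of 16 to 60 nt that lie between the canonical stop codon of a yeast mRNA and the next stop codon in the same reading frame. They were chosen by length alone from 4 tables of ribosome footprints, among transcripts whose 3’-UTR length is annotated rather than set to a default, and 1235 of the 6575 transcripts in the tables met this rule. Another 891 transcripts with an annotated 3’-UTR had a shorter extension (up to 15 nt) and 707 a longer one. The study compared wild-type *SUP45* cells (HFY114) with temperature-sensitive *sup45-ts* cells (HFY1218, allele *sup45-2*), each kept at 25°C or moved to 37°C for 30 min. The strains share the W303 background, the mating type *MATa* and the alleles *ade2-1*, *can1-100* and *ura3-1* together with *his3-11*,*15*, *leu2-3*,*112* and *trp1-1*. The mutant is 1 strain, made from HFY114 by gene replacement, so its allele cannot be told apart from other differences of that strain. Each of the 4 conditions had 2 ribosome profiling and 2 RNA-Seq libraries, but the authors combined the replicates of ribosome profiling, so every readthrough value below is a single value per condition. Intervals on such values are at 95%, cover counting error only (for medians, the spread over genes), and were not turned into tests. Where 4 values follow each other, they belong to *SUP45* at 25°C, *SUP45* at 37°C, *sup45-ts* at 25°C and *sup45-ts* at 37°C, always in this order, and the last condition is called the heated mutant.

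*SUP45* encodes eRF1, the release factor that recognizes all stop codons in the ribosomal A site and triggers release of the finished protein together with eRF3, the product of *SUP35*. When a tRNA decodes the stop codon instead, the ribosome reads through and goes on in the 3’-UTR until it meets another stop codon in frame. The extension is the RNA that such a ribosome translates, and its length sets how many residues are added to the protein.

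In the deposited tables the canonical stop codon is part of the extension. The shortest extension among the 2833 transcripts with an annotated 3’-UTR measured 3 nt (185 transcripts), none was empty, and what remained of the 3’-UTR behind an extension was never shorter than 3 nt, the size of the downstream stop codon. Of the 1235 medium extensions, 1175 ended at such a stop codon, the shortest after 18 nt. The other 60 ran to the end of the annotated 3’-UTR without meeting a stop codon. The median extension measured 33 nt, within a median 3’-UTR of 119 nt (range 19 to 1410 nt) behind a median coding region (CDS) of 1068 nt. In 388 transcripts of any class the extension filled the whole 3’-UTR, and there the deposited extension and 3’-UTR counts were equal in all 4 tables (0 transcripts differed), so the 3’-UTR counts, like the extension counts, hold footprints in frame 0 only.

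Ribosomes were sparse on the medium extensions of *SUP45* cells and dense on those of the heated mutant. The extensions held 1608, 666, 6305 and 129657 footprints, beside 4475211, 4433642, 5543535 and 1573363 in the CDS of the same genes. The CDS footprints of the members made up 25.9%, 26.7%, 25.7% and 24.3% of the footprints in each table, so their counts followed table depth, while the extension footprints did not. Pooled over all members and expressed as extension density in percent of CDS density, readthrough was 1.18% (1.12 to 1.23) for *SUP45* at 25°C and 0.491% (0.455 to 0.530) after heating. The mutant had 3.72% (3.63 to 3.81) at 25°C and 269.5% (268 to 271) at 37°C. A value above 100% means that a nucleotide of an extension carried more footprints than a nucleotide of the CDS. Footprints over the first 15 nt and final 33 nt of a CDS are absent from the CDS counts, whereas the last codon before the downstream stop codon is kept in the extension counts.

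The same order was seen gene by gene. The readthrough efficiency of a gene is the log2 ratio of extension RPKM to CDS RPKM, and exists only where the extension held a footprint. Its median for *SUP45* was -5.47 (-5.68 to -5.23, 406 members) at 25°C and -6.30 (-6.53 to -6.06, 284 members) at 37°C. The median for *sup45-ts* was -4.66 (-4.80 to -4.47, 677 members) at 25°C and 0.54 (0.43 to 0.67, 1179 members) at 37°C. In the heated mutant 713 of those 1179 members had a denser extension than CDS, against 1 of 284 in heated *SUP45* cells. That 1 was *YLR112W*, with 5 extension beside 8 CDS footprints, named here after its values were seen. The share of the 1235 extensions with any footprint was 32.9% (exact binomial interval 30.3 to 35.6) and 23% (20.7 to 25.4) for *SUP45*, and 54.8% (52.0 to 57.6) and 95.5% (94.2 to 96.6) for *sup45-ts*. The tables differ in depth, from 6463100 footprints for the heated mutant to 21557248 for the mutant at 25°C. With every table brought to the depth of the smallest, the shares were 19.2%, 12.1%, 34.1% and 95.5%, which keeps the order of the conditions.

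**Figure D1:**
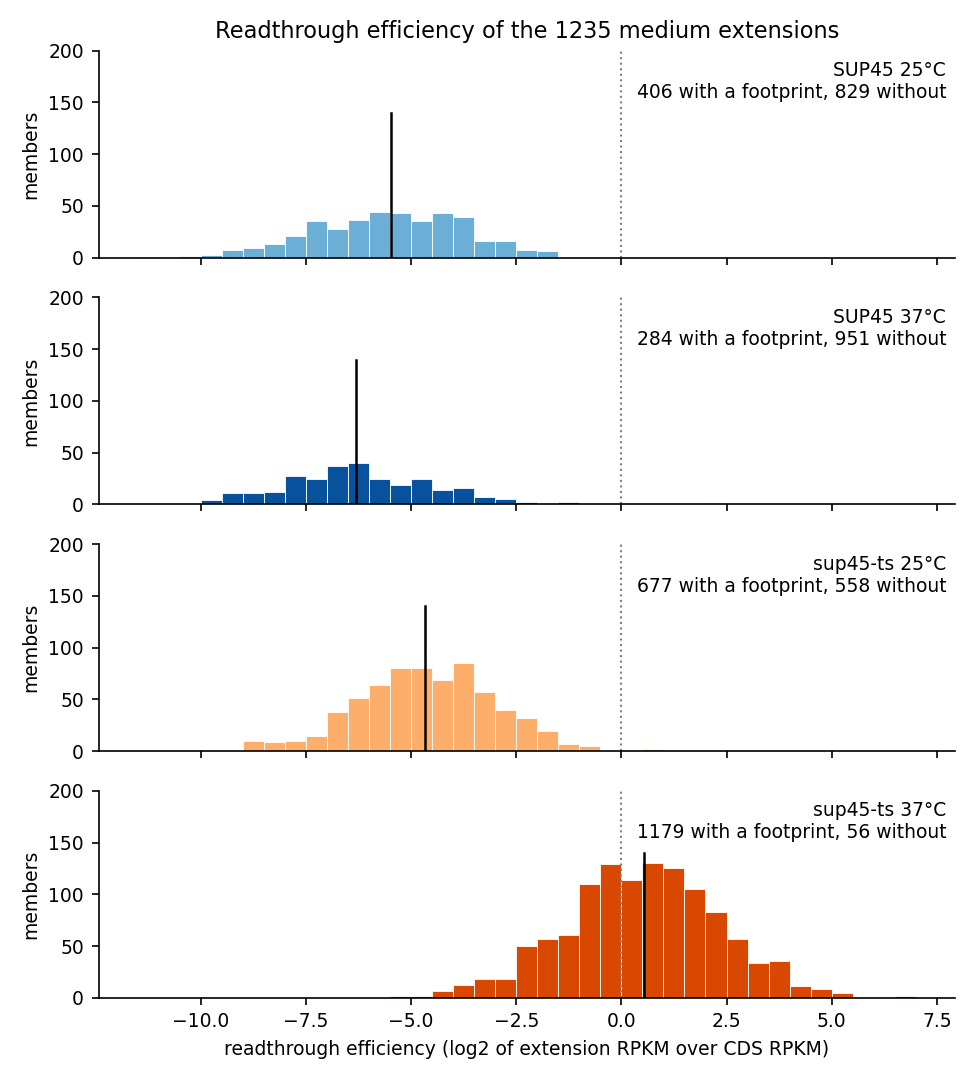
Histograms of readthrough efficiency (x axis, log2 of extension RPKM over CDS RPKM) of the medium extensions with at least 1 footprint, 1 panel per condition, with the number of members per bin of 0.5 on the y axis. The black line marks the median (-5.47, -6.30, -4.66 and 0.54 from top to bottom) and the dotted line equal density in extension and CDS.

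At 37°C nearly every member that could be compared was higher in the mutant. Of 282 members with a footprint in both strains, 280 were higher in *sup45-ts*, with a median log2 difference of 7.17 (6.92 to 7.51). A member without a footprint has no readthrough efficiency, so which members enter depends on the counts compared. Adding 0.5 footprints to all extensions, so that empty ones could enter, gave a median of 6.51 over 1202 members. Members entered this calculation with a CDS RPKM of at least 5 in both tables. For a member empty in both tables the difference then holds its CDS counts only. Heating of the mutant gave a median difference of 5.40 (5.26 to 5.53), with 667 of 668 members higher, and 5.22 over 1162 members with 0.5 footprints added. Heating of *SUP45* cells went the other way, with a median difference of -0.70 (-0.98 to -0.46), 111 of 157 members lower and 46 higher. With 0.5 footprints added the median was -0.63 over 1165 members. Most extensions were empty in each table of *SUP45* cells, so this value draws on CDS counts and says little about readthrough. These comparisons share tables and are given side by side.

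**Figure D2:**
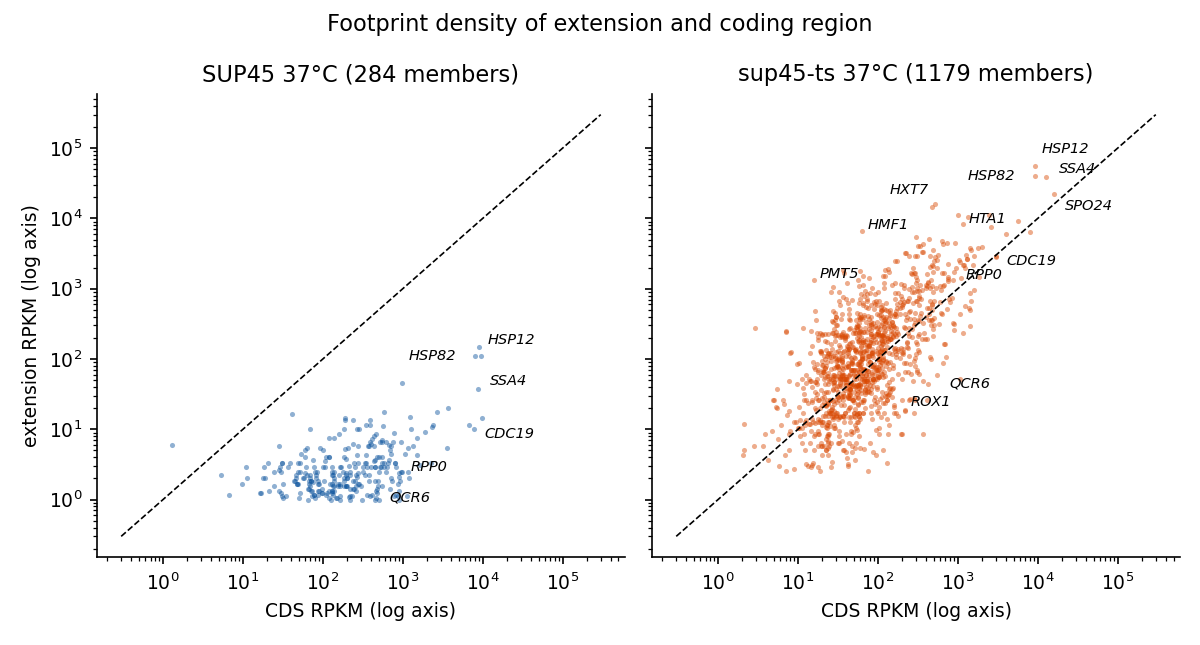
Extension RPKM against CDS RPKM (both log axes) at 37°C, 1 point per medium extension with a footprint, *SUP45* cells on the left (284 members) and *sup45-ts* cells on the right (1179 members), with the dashed line at equal density. In *SUP45* cells all members but 1 lie below the line, and in *sup45-ts* cells 713 lie above it.

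Readthrough was also higher in the mutant at 25°C, where both strains were grown. Of 334 members with a footprint in both strains, 264 were higher and 70 lower in *sup45-ts*, with a median log2 difference of 1.27 (1.16 to 1.47). When members without footprints were kept, by adding 0.5 footprints to every extension, the median over 1163 members was 0.31. Members empty in both tables entered this median with a difference in CDS counts only. Across members, Spearman’s ρ of readthrough efficiency was 0.71 between the strains at 25°C (334 members) and 0.75 between the temperatures for *SUP45* (157 members). It was lower against the heated mutant, at 0.41 with the mutant at 25°C (668 members), 0.20 with heated *SUP45* cells (282 members) and 0.24 with *SUP45* at 25°C (403 members). These values include members with a single footprint. With at least 10 footprints in both tables, ρ was 0.85 between the strains at 25°C (35 members). Against the heated mutant it was then 0.62 with the mutant at 25°C (122 members) and 0.58 with *SUP45* at 25°C (33 members). These are descriptions over genes that share libraries and sequence context.

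A few genes held much of the signal in every condition. The 10 members with the most extension footprints carried 25.4%, 30.2%, 28.4% and 30.2% of all extension footprints, and the leading gene was another one in each table. *RPP0*, which encodes the stalk base protein of the large ribosomal subunit, led for *SUP45* at 25°C with 54 footprints, and *AHP1*, a thiol peroxidase, led after heating with 52. *RPP1A*, another stalk protein, led for the mutant at 25°C with 322, and *HSP12*, a small heat shock protein of membranes, led in the heated mutant with 7582 footprints.

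The 3 members with the most extension footprints in the heated mutant are heat shock genes with few or no extension footprints at 25°C. In heated *SUP45* cells they were among the 5 members with at least 10 extension footprints. The extension of *HSP12* (21 nt, R64 chromosome VI, 107583 to 107603, plus strand) held 0, 38, 0 and 7582 footprints. Its CDS held 44243 footprints in heated *SUP45* cells and 16631 in the heated mutant, so that readthrough efficiency was -6.45 in the former and 2.60 in the latter, a ratio of 531 (386 to 751). For *HSP82*, which encodes an inducible Hsp90 chaperone (24 nt, chromosome XVI, 96475 to 96498, minus strand), the extension counts were 2, 44, 5 and 6321. Its readthrough efficiency at 37°C was -6.19 for *SUP45* and 2.16 for *sup45-ts*, 325-fold apart (242 to 448). *SSA4*, an inducible Hsp70 (21 nt, chromosome V, 366515 to 366535, plus strand), had 0, 13, 0 and 5240 extension footprints, over 269565 CDS footprints in heated *SUP45* cells and 156221 in the heated mutant. Scaled to table depth, the CDS levels of these genes were near each other in the heated strains, at 9536 and 9223 RPKM for *HSP12*, 8030 and 9130 for *HSP82* and 8631 and 12871 for *SSA4*. The extension levels were 109 and 55863 RPKM, 110.2 and 40751 RPKM, and 37.2 and 38607 RPKM.

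Among the other 7 of the 10 leading genes, *HSP42* and *BTN2* are also on the list of heat shock proteins and chaperones used below. The rest came from several pathways. *HTA1*, which encodes histone H2A (39 nt, chromosome IV, 915926 to 915964, plus strand), had 4, 0, 22 and 2847 extension footprints. Against the 3 footprints that a count of 0 allows, its readthrough at 37°C was at least 607-fold higher in the mutant. *HXT7*, a high-affinity hexose transporter (27 nt, chromosome IV, 1154192 to 1154218, minus strand), had 0, 0, 1 and 2793 footprints and was at least 311-fold higher in the mutant at 37°C. *TKL1*, the transketolase of the pentose phosphate pathway, had 4, 3, 41 and 2501, and its readthrough efficiency of 4.90 in the heated mutant stood 2742-fold above heated *SUP45* cells (937 to 13306). *CYC1*, cytochrome *c*, had 0, 1, 4 and 2235. *HSP42*, a small heat shock protein, had 0, 3, 0 and 2673. *BTN2*, which takes part in sorting of protein aggregates, had 0, 0, 1 and 1763. *SPO24*, a short gene linked to sporulation, had 0, 0, 3 and 5233, and most of its 22504 in-frame 3’-UTR footprints in the heated mutant lay behind the extension. All 10 genes had more extension footprints in the heated mutant than in the other 3 conditions together. They were picked for their footprints in the heated mutant, so this and the folds given for them follow in part from the choice. Reads that matched up to 10 places were kept in the alignment, so the counts of genes with a near-identical copy (*HXT7*, *HTA1*, *HHT1*, *EFT2*, *SSA1* and many ribosomal protein genes) are uncertain.

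Ribosomal protein genes led the readthrough of *SUP45* cells at 25°C in footprints, while their median and pooled readthrough were below those of all members. The 47 members that encode cytosolic ribosomal proteins held 738 of the 1608 extension footprints there, at a median readthrough efficiency of -7.41 against -5.47 over all members, and 3 of the 47 were above the latter. All 47 had a footprint, whereas the median over all members covers only the 406 with a footprint. In the pooled value the ribosomal proteins had 0.674% against 1.18%. With each member’s own CDS density the value over all members was 0.804%, and that of the ribosomal proteins was not computed. The 47 genes held 1374432 of the 4475211 CDS footprints of all members. *RPP0* had 54, 2, 237 and 415 extension footprints, with readthrough efficiencies of -5.50, -7.89, -3.68 and 1.17. *RPL9B* had 45, 4, 70 and 1116, with efficiencies of -5.02, -6.01, -4.66 and 2.25, and overlaps a neighbour on its strand by 94 bp. *RPS29B* had 50, 5, 211 and 364 footprints and *RPL14A* 50, 2, 157 and 595. *RPL28*, whose extension has the greatest length that the rule admits (60 nt), had 43, 0, 102 and 125. Of these 5 leading genes *RPL28* alone had a readthrough efficiency below 0 in the heated mutant (-1.44). At 25°C the 5 genes stood between 1.28 and 4.79 times higher in the mutant, and the interval for *RPL9B* contained 1 (0.868 to 1.91).

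The 5 members with the largest excess of the mutant at 25°C stood between 7.01-fold and 10.97-fold above *SUP45* cells. They were taken among 88 members with at least 3 footprints in the latter and 10 in the former. *RPS21A* had 6 and 72 extension footprints in the wild type and the mutant, a 10.97-fold difference in readthrough (4.80 to 30.9). *AHP1* had 6 and 52 (10.2-fold, 4.37 to 28.9) and *RPP1A* 25 and 322 (10-fold, 6.65 to 15.7). *RPS25A* had 8 and 61 (7.32-fold, 3.49 to 17.7), and *TKL1* 4 and 41 (7.01-fold, 2.54 to 26.9). All 5 intervals lay above 1, but these genes were picked for their difference, and no test applies to them. *RPS21A*, *RPP1A* and *RPS25A* encode ribosomal proteins, while *AHP1* and *TKL1* are enzymes. How many of the 88 encode ribosomal proteins was not counted.

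By gene list, pooled readthrough in the heated mutant ranged from 121% (termination, recycling and mRNA surveillance) to 703% (histones). The lists were read by their counts and medians, beside the median of 0.54 over all members. The 2 histone genes had the highest median, 2.16, with *HTA1* at 3.47 and *HHT1* at 0.84. The 16 genes of oxidative phosphorylation had a median of 1.32 and a pooled readthrough of 521%, with 12 of 16 above the median of all members. They ranged from -3.20 for *QCR6*, a subunit of complex III, to 3.93, with *COX5A*, a subunit of cytochrome *c* oxidase, at 2.92 and *CYC1* at 2.98. The 6 genes of glycolysis and fermentation had a median of 1.26 with 3 above, among them *PFK1*, a subunit of phosphofructokinase, at 3.24 and *CDC19*, pyruvate kinase, at -0.05. The 7 genes of ergosterol synthesis (median 1.04), the 9 of the cell wall (1.02) and the 11 heat shock proteins and chaperones (0.72) had 5, 5 and 7 members above. In the last of these lists *SSA1*, another Hsp70, had 880 extension footprints and a value of -0.31. The 13 elongation and initiation factors stood near all members (median 0.41, 6 above), with *NIP1*, a subunit of eIF3, at 2.30 and *FUN12*, eIF5B, at -0.46.

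Below the members’ median were the ribosomal proteins (-0.42, 16 of 47 above) and the 10 genes of termination, recycling and mRNA surveillance (-0.47, 3 of 10 above). *SUP35* had 1, 0, 1 and 4 extension footprints, and its readthrough efficiency of -2.06 in the heated mutant rests on those 4. *HBS1* and *DOM34*, which act together in rescue of stalled ribosomes, had 7 and 24 footprints there (-0.38 and 0.51), and *DBP5*, an RNA helicase, had 65 (1.17). In the other conditions the median of the ribosomal proteins was likewise below that of all members, at -7.65 against -6.30 in heated *SUP45* cells and -5.64 against -4.66 in the mutant at 25°C.

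**Figure D3:**
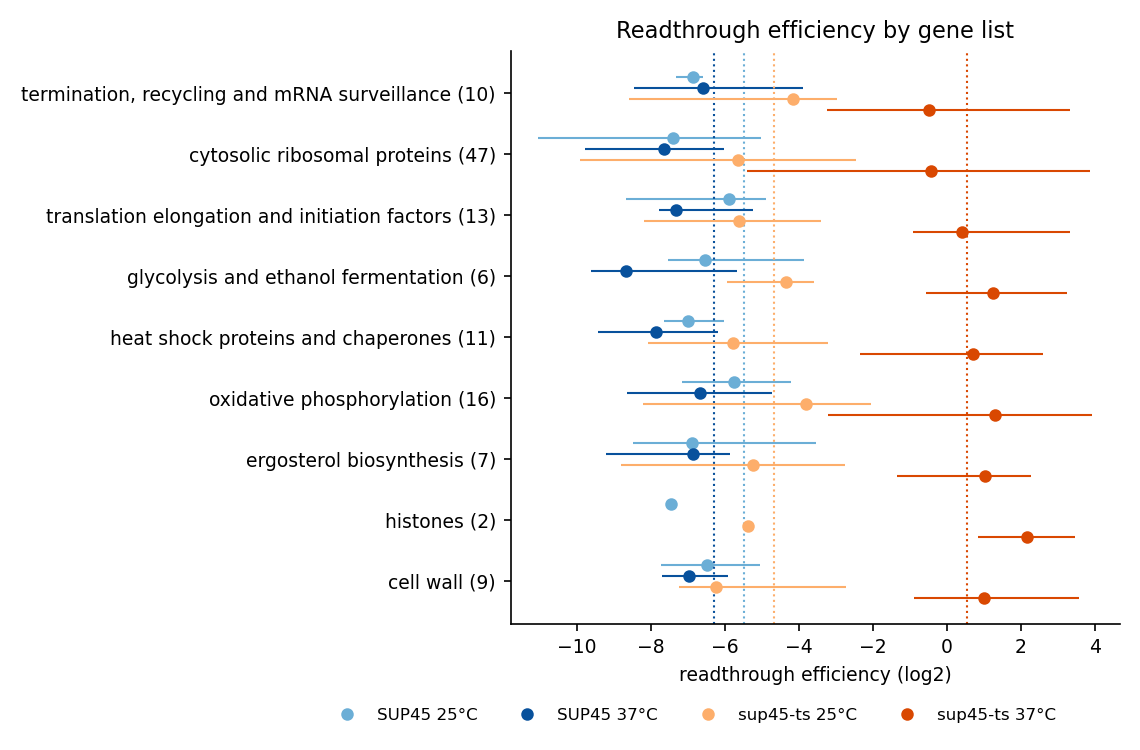
Median readthrough efficiency (points, log2 on the x axis) of the members of 9 gene lists, with the number of members in parentheses, in the 4 conditions. The lines run from the lowest to the highest member with a footprint and the dotted lines mark the medians of all medium extensions, which for the heated mutant lies at 0.54, above the ribosomal protein median of -0.42.

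Individual members of the heated mutant spread widely. Over all 1179 with a footprint, the 10th and 90th percentiles were -1.94 and 2.78, 239 had a value above 2 and 109 a value below -2. The 805 with at least 10 extension footprints, a minimum that removes low values, had a median of 1.17. The highest values among the 755 that also had 100 CDS footprints were those of *HMF1* and *PMT5*. *HMF1* (33 nt, chromosome V, 270707 to 270739, minus strand) had 1, 0, 6 and 1404 extension footprints, the last beside 137 in its CDS, and reached 6.72. *PMT5*, a protein *O*-mannosyltransferase (36 nt, chromosome IV, 292138 to 292173, plus strand), had 0, 0, 0 and 306, the last beside 222 (6.38). *CBK1*, a protein kinase of cell morphogenesis, followed with 605 beside 527 (5.64), *RLF2*, a subunit of chromatin assembly factor, with 257 beside 432 (5.46), and *CDC40*, a splicing factor, with 164 beside 235 (5.26). In *HMF1*, *PMT5* and *CBK1* the extension held more footprints than the CDS itself.

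Under the same minimums the lowest value belonged to *YDR133C*, named by its systematic name, with 12 extension beside 1988 CDS footprints (-4.39). This member was not matched to the annotation, so its overlap with neighbours was not checked. Its CDS had 1079 RPKM in the heated mutant, where its mRNA had only 20.04 and 20.15 FPKM. *QCR6* had 16 beside 1377 (-3.20) and overlaps a neighbour on its strand by 50 bp, and *ROX1*, a repressor of hypoxic genes, had 19 beside 2528 (-2.92). The in-frame footprints of both lay mostly behind the downstream stop codon, with 380 in the whole 3’-UTR of *QCR6* and 763 in that of *ROX1*. The paralogs *RPS29A* and *RPS29B* differed. *RPS29A*, with an extension of 21 nt, had 2, 0, 10 and 12 footprints (-2.88 in the heated mutant), and *RPS29B*, with 42 nt, had 50, 5, 211 and 364 (0.63). *RPS27B* had 8, 1, 11 and 37 (-2.73).

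A small set of members had no extension footprint even in the heated mutant. These were 56 of 1235, and 36 of them belonged to the 1108 members with at least 100 CDS footprints there. Their median CDS count was 145.5 beside 424 for the other members. *WBP1*, a subunit of oligosaccharyltransferase (24 nt, chromosome V, 148701 to 148724, minus strand), had 0 extension footprints in all 4 conditions beside 4944, 5779, 6112 and 1193 CDS footprints. The upper limit of 3 footprints set its readthrough efficiency at or below -2.94 in the heated mutant. The limits were -3.01 for *BRO1*, which acts in sorting to the vacuole, and -3.46 for *ARC40*, a subunit of the Arp2/3 complex whose extension filled its 3’-UTR of 51 nt. They were -1.13 for *SEY1*, a GTPase of endoplasmic reticulum fusion, and -0.25 for *SSM4*, a ubiquitin ligase of the same membrane. All 5 genes were without extension footprints in all 4 conditions, and for *SSM4* the limit is not far below the members’ median. In all, 43 members had no extension footprint in any table, and 152 had at least 1 in every table.

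Readthrough per nucleotide was lower in the longest than in the shortest members in all 4 conditions, with uneven steps between them. Members of 16 to 21 nt had a pooled readthrough of 1.80% (1.64 to 1.98) and 0.827% (0.723 to 0.941) in *SUP45* cells at 25°C and 37°C and of 6.37% (6.09 to 6.66) in the mutant at 25°C. Members of 52 to 60 nt had 0.979% (0.857 to 1.11), 0.331% (0.252 to 0.427) and 2.96% (2.76 to 3.17). In the heated mutant the pooled value was 308% (305 to 312) at 16 to 21 nt, 420.1% at 34 to 39 nt, 216% at 40 to 45 nt and 261% (257 to 265) at 52 to 60 nt. Without division by length the longest members were not lower than the shortest. In multiples of the footprints of an average CDS codon of the same genes, extension footprints were 0.076, 0.047, 0.287 and 18.9 at 16 to 21 nt. At 52 to 60 nt they were 0.097, 0.049, 0.312 and 40.0. The values of heated *SUP45* cells were near each other, the latter from 59 footprints. At 25°C the ranges did not rise evenly, with 0.132 for *SUP45* and 0.439 for the mutant at 40 to 45 nt. This measure sums the CDS densities of single members, unlike the pooled value. Spearman’s ρ between length and readthrough efficiency over members with a footprint was -0.20, -0.22, -0.22 and -0.08 in the 4 conditions, and -0.17 over the 805 members with at least 10 footprints in the heated mutant. Because 1 footprint weighs more in a short extension, the lowest value that can be seen falls with length, and the part of this in the correlations was not tested.

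At the edges of the range, pooled readthrough was 1.34%, 0.523%, 3.61% and 172% at 15 nt, just outside, and 1.82%, 0.579%, 6.83% and 284% at 18 nt, just inside. At 60 nt it was 1.07%, 0.257%, 3.38% and 266%, and at 63 nt 0.792%, 0.561%, 2.27% and 591%. At 15 nt the median readthrough efficiency in the heated mutant was 0.76 (139 transcripts, 130 with a footprint) and at 18 nt 0.85 (119 and 110). At 60 nt it was -0.07 (52 members) and at 63 nt 0.66 (56 transcripts). Over the whole classes, short extensions had a pooled readthrough of 1.96%, 0.761%, 5.27% and 384%, and long extensions of 0.535%, 0.257%, 1.505% and 184%. Medium extensions lay between them in all 4 conditions, and the counting intervals of the 3 classes did not overlap. Without division by length the classes stood in the reverse order in all 4 conditions. In the heated mutant short, medium and long extensions held 10.1, 26.5 and 41.4 times the footprints of an average CDS codon. The classes hold different genes in the same libraries, and the difference between classes was not tested.

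**Figure D4:**
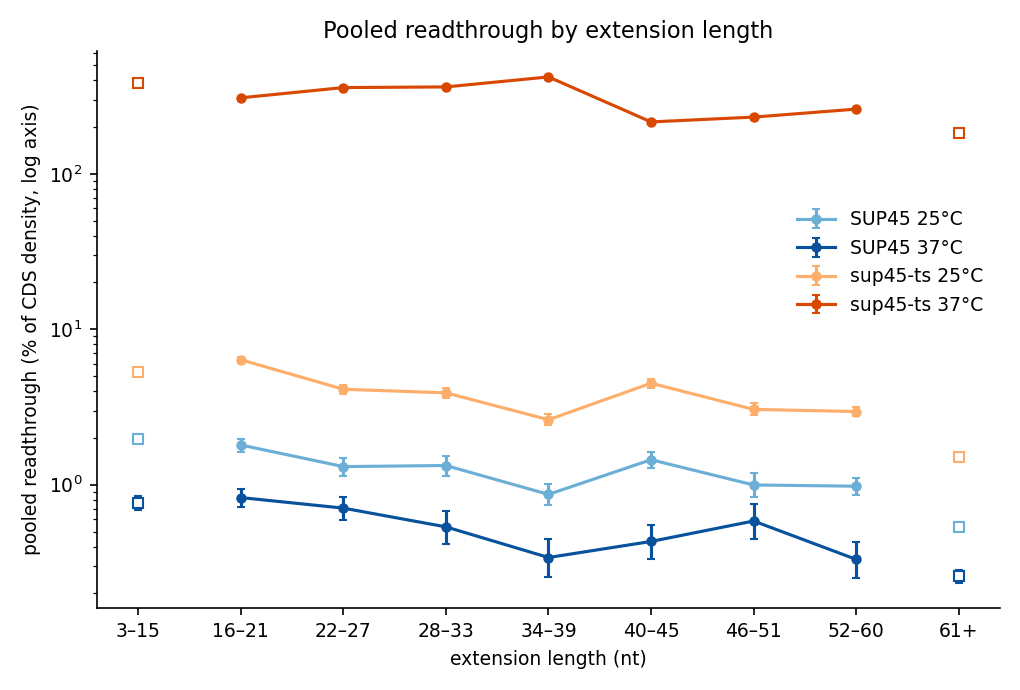
Pooled readthrough (extension density in percent of CDS density, log axis) by extension length in nt, for the 4 conditions, with 95% counting intervals. Filled points are the medium extensions in 7 length ranges and open squares the short and long extensions, and all 4 curves are lower at 52 to 60 nt than at 16 to 21 nt, that of the heated mutant after a peak of 420.1% at 34 to 39 nt.

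The 60 members without a stop codon in frame had less readthrough than the rest in the heated mutant. They held 40, 19, 140 and 846 extension footprints. Their pooled readthrough in the heated mutant was 82.6% (77.1 to 88.3) beside 275% (273 to 276) for the 1175 that end at a stop codon, and their median -1.14 (-1.69 to -0.25) beside 0.62 (0.48 to 0.75). In the other 3 conditions the counting intervals of the pooled values overlapped, for example at 25°C with 1.29% (0.921 to 1.76) beside 1.18% (1.12 to 1.24) for *SUP45*, and 3.83% (3.22 to 4.52) beside 3.73% (3.64 to 3.83) for the mutant. In the heated mutant 12 of these 60 had no extension footprint. Their extensions end with the annotated mRNA and hold no footprints of ribosomes halted at a downstream stop codon, and the part of this in the difference was not tested.

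Most in-frame footprints of the 3’-UTR lay within the extension in 3 conditions, while in the heated mutant many also lay behind it. In the paper frame 0 dominated the extension, but for most strains it did not dominate the 3’-UTR behind it. Whether footprints behind the extension came from ribosomes that stayed in frame was not tested, since the counts hold frame 0 only. The extensions make up 25.1% of the 3’-UTR length of the members. For *SUP45* they held 1608 of 1833 in-frame 3’-UTR footprints at 25°C (87.7%, exact binomial interval 86.1 to 89.2) and 666 of 841 at 37°C (79.2%, 76.3 to 81.9). For *sup45-ts* they held 6305 of 6637 at 25°C (95%, 94.4 to 95.5) and 129657 of 248238 at 37°C (52.2%, 52.0 to 52.4). Behind the extension, the density was 0.055%, 0.043%, 0.066% and 82.7% of CDS density, the last from 118581 footprints. Among the 951 members with a stop codon in frame and at least 10 in-frame 3’-UTR footprints in the heated mutant, the median share in the extension was 62.5% (quartiles 33.5 and 86.3), 359 had less than 50% there, and 803 had more than the share of length. In the mutant at 25°C the median over 129 such members was 100%. The share of 3’-UTR footprints within the extension in the heated mutant was 23.2% for short and 76.3% for long extensions, which make up 5.77% and 58.1% of their 3’-UTR length.

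**Figure D5:**
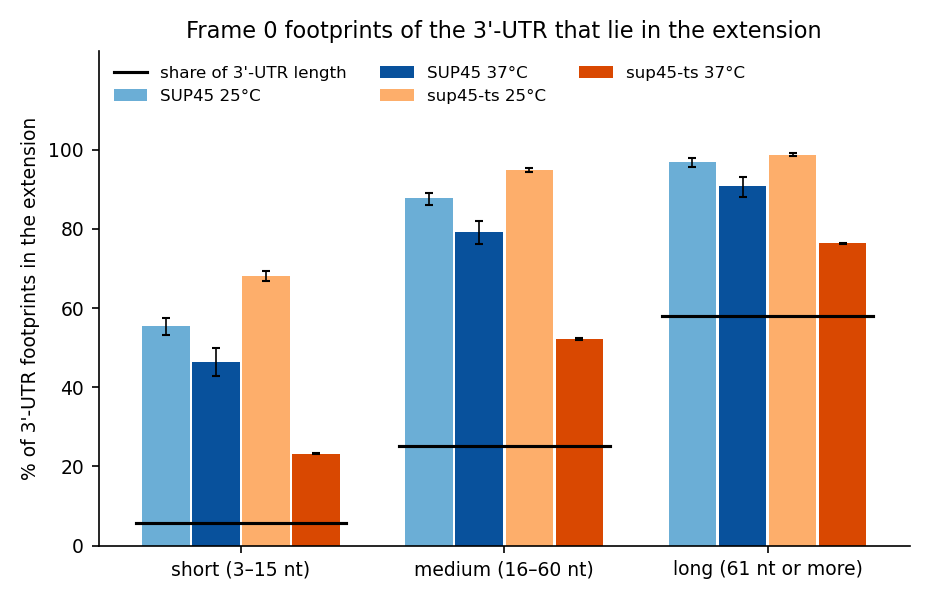
Percent of in-frame 3’-UTR footprints that lie in the extension (y axis, bars start at 0) for short, medium and long extensions in the 4 conditions, with exact binomial 95% intervals and the share of 3’-UTR length as a black line. For medium extensions the bars are 87.7%, 79.2%, 95% and 52.2% beside 25.1% of the length.

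The mRNAs that carry medium extensions differed widely between the strains at 37°C, and at 25°C no difference passed the test. RNA-Seq libraries (107324550 to 153654244 expected counts) were tested by edgeR’s quasi-likelihood test over 6767 transcripts, with Benjamini-Hochberg adjustment at 0.05. The labels do not say whether the 2 replicates came from separate cultures, so the p-values may measure technical spread only. At 37°C, 989 of 1234 tested members were called, beside 78.9% of all transcripts. Of the members, 348 (28.2%) rose and 641 (51.9%) fell in *sup45-ts* against *SUP45*. Over all transcripts the shares were 39.5% and 39.4%, while transcripts with short extensions (28.0% and 52.7%) and long extensions (29.5% and 54.2%) were near the members. At 25°C edgeR called 0 of 1234 members, beside 0.133% of all transcripts. Of the members, 183 had an unadjusted p below 0.05, and by DESeq2 there were 22 calls. Shares over all transcripts were not computed for the unadjusted and DESeq2 counts, so these say nothing particular about the members.

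The largest rises at 37°C were in *CIT2*, a peroxisomal citrate synthase, *BTN2* and *SPO24*. *CIT2* had 24.2 and 29.6 FPKM in *SUP45* cells and 1107 and 1028 FPKM in the mutant, a log2 change of 5.32 (SE 0.22, edgeR adjusted p = 3.88e-08). *BTN2* went from 162 and 154 FPKM to 4448 and 4218 (4.78, SE 0.13, edgeR adjusted p = 4.46e-09), and *SPO24* from 131 and 138 to 3267 and 3299 (4.62, SE 0.17, edgeR adjusted p = 2.19e-08). The largest falls were in *RPC11*, a subunit of RNA polymerase III (106 and 129 to 15.95 and 16.4 FPKM, -2.85), *YFH1*, frataxin (133 and 159.6 to 21.9 and 21.9, -2.73), and *GET3*, an ATPase of membrane protein insertion (646 and 676 to 115 and 115, -2.52). These 6 genes were taken among called members whose replicates did not overlap between the strains. Replicates did not overlap in 1105 of the 1234 tested members and in 5980 of all 6767 transcripts.

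Of the 10 genes with the most extension footprints in the heated mutant, 9 had more mRNA there than in heated *SUP45* cells by this test and 1, *HSP12*, had less. *HSP12* stood at 12890 and 16644 FPKM in *SUP45* cells and 7494 and 7709 FPKM in the mutant (log2 change -0.95, SE 0.23, edgeR adjusted p = 0.0037). *HSP42* rose from 427 and 424 to 5741 and 6328 FPKM (3.83, SE 0.17), *HXT7* from 114 and 96.3 to 868 and 886 (3.06, SE 0.29), and *TKL1* from 535 and 486 to 684 and 739 (0.48, SE 0.12, edgeR adjusted p = 0.0034). By list, beside 28.2% of all members that rose and 51.9% that fell, both histone genes, 4 of 7 ergosterol genes, 5 of 11 heat shock proteins and chaperones, 2 of 6 glycolytic genes and 5 of 16 genes of oxidative phosphorylation rose, and 0, 1, 4, 1 and 6 fell. Of the ribosomal proteins 14 of 47 rose and 18 fell, of the termination genes 2 of 10 rose and 5 fell, of the cell wall genes 1 of 9 rose and 4 fell, and of the elongation and initiation factors 1 of 13 rose and 9 fell. Spearman’s ρ of readthrough efficiency in the heated mutant was taken across 805 members with at least 10 extension footprints. It was 0.07 with the log2 change of the mRNA and -0.27 with its FPKM in the same cells, without a test. A gene with little mRNA tends to reach 10 extension footprints only where its readthrough is high. The value of -0.27 therefore cannot show whether readthrough falls with mRNA level. The paper reports a negative correlation of readthrough with expression in its samples except the heated mutant.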

How the data were processed

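The series holds 16 libraries, 2 of ribosome profiling and 2 of RNA-Seq per condition, grouped by the sample labels. For ribosome profiling the authors trimmed reads (cutadapt), removed non-coding RNA and PCR duplicates, aligned the rest (bowtie) to a transcriptome built on R64, assigned P-sites and combined the replicates. The deposited counts are whole footprints in frame 0 of CDS, 3’-UTR and extension. RPKM values in the same tables were computed by the authors from these counts and the table total. The authors’ log2 ratio of extension RPKM to CDS RPKM is the readthrough efficiency. Transcripts with the default 3’-UTR of 173 nt, listed as 176 nt with the stop codon, were left out. For RNA-Seq the authors ran RSEM, and its expected counts and FPKM were deposited per library. The RSEM files of ribosome profiling were not used here.

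Pooled readthrough, medians, shares and folds came from the footprint counts, with exact Poisson, binomial and order-statistic intervals at 95% and a floor of 3 footprints, which cover counting error only. For RNA-Seq, edgeR (TMM scaling, filterByExpr, all 8 libraries) was run on rounded expected counts, after a check on simulated data. Names and coordinates come from the R64 annotation, which matched 1234 of the 1235 members. Genes were named by rank of extension footprints, readthrough efficiency or strain difference with minimum counts of 3, 10 and 100, by CDS footprints within gene lists, and by mRNA change. The members and lists were chosen with earlier results of these data known. Calls of a 2-fold change in readthrough were planned and are not reported, because the minimum counts they need fix much of their direction. Readthrough by stop codon and neighbouring bases was planned and was not computed, since no sequence was used here. Alternatives were minimum levels, leaving out the leading gene or overlapping genes, a narrower length range, added footprints, depth, DESeq2, a replicate block, the libraries in the fit and each replicate left out. The count models were run in R 4.3.3 (edgeR 4.0.16, limma 3.58.1 and, as the alternative, DESeq2 1.42.0), the rest with scipy 1.17.1, numpy 2.4.6 and pandas 2.3.3 under Python 3.11.15, and plots with matplotlib 3.10.9.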

Additional observations from a re-analysis of the deposited data

Results flagged for a closer look

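Heating moved readthrough in opposite directions in the strains, which was not tested because each condition is 1 pooled table. Pooled readthrough of medium extensions changed by -0.684 percentage points in *SUP45* cells and by 266 in *sup45-ts* cells. Median readthrough efficiency changed by -0.82 and 5.20 on the log2 scale, and the share of extensions with any footprint by -9.88 and 40.6 percentage points. At the depth of the smallest table the share was still lower at 37°C for *SUP45* (12.1% beside 19.2%) and higher for *sup45-ts* (95.5% beside 34.1%).

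Of 10 named genes whose extension held 3 or more footprints in every table, 6 changed in opposite directions and 4 were higher at 37°C in both strains (*RPS25A* by 1.40, *TKL1* by 0.20, *AHP1* by 0.07 and *RPL3* by 0.06 on the log2 scale in *SUP45* cells). Readthrough efficiency changed in *SUP45* and *sup45-ts* cells by -3.07 and 4.31 for *CDC19*, by -1.81 and 6.84 for *PFK1* and by -0.99 and 6.91 for *RPL9B*. The changes were -0.96 and 6.82 for *CWP2*, a cell wall protein, -0.70 and 3.93 for *RPS29B*, and -0.50 and 5.23 for *COX5A*. For *SUP45* the ratio of 37°C to 25°C had a counting interval below 1 for *CDC19* (0.119, 0.0234 to 0.378) and *PFK1* (0.285, 0.0845 to 0.765). The intervals of the other 4 of these 6 genes contained 1. So did the *SUP45* intervals of all 4 genes listed as higher in both strains, so their direction in *SUP45* cells is uncertain. None of these differences between strains was tested.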

How the results depend on the processing

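Readthrough rests on 1 pooled table per condition, so nothing in it could be checked between replicates, and in *SUP45* cells most members had 0 footprints. The heated mutant stood highest and the mutant at 25°C next under every alternative run for the pooled value, the median and the share. Heated *SUP45* cells stood lowest in all of these except the median of members with at least 10 footprints, which was -6.54 at 25°C (35 members) and -6.19 at 37°C (5 members) for *SUP45*, and -4.29 and 1.17 for the mutant. With each member’s own CDS density, an alternative chosen after seeing the data, pooled readthrough was 0.804% for *SUP45* at 25°C and 2.73% and 247% for the mutant at 25°C and 37°C. The mutant had 3.55% at 25°C without *RPP1A* and 257% at 37°C without *HSP12*, 3.58% and 308% with extensions of 24 to 51 nt, and 275% at 37°C with only extensions that end at a stop codon, also chosen after seeing the data. With 0.5 footprints added the median was -6.01 for heated *SUP45* cells and -4.80 for the mutant at 25°C, where RPKM minimums of 5 (CDS) and 0.5 (3’-UTR) gave -4.44. The share of members with a footprint in the mutant at 25°C was 57.8% with the CDS minimum, and at the depth of the smallest table the shares were 19.2%, 12.1% and 34.1% in the first 3 conditions. The median difference between the strains at 37°C was 8.34 with at least 10 footprints in both (5 members) and 6.51 with 0.5 footprints added, which also gave 0.31 between the strains at 25°C and 5.22 for heating of the mutant. No member had 10 footprints in both tables of *SUP45* cells. The causes of these shifts were not tested.

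Of the mRNAs of members, edgeR called 989 at 37°C, 917 to 944 without each replicate in turn and 1003 with the replicate number as a block. At 25°C edgeR called 0, between 0 and 24 without each replicate in turn (24 without *SUP45* replicate 1 and 1 without *sup45-ts* replicate 1), and DESeq2 called 22. The replicate block gave 1 call at 25°C. Deviations of same-numbered libraries were hardly correlated between the strains (r = 0.037 at 37°C and 0.017 at 25°C). Same-numbered libraries of the same strain at the other temperature were not compared, so a pairing between temperatures was not tested. All 14 mRNAs followed singly at 37°C kept their direction and their side of the threshold under 8 alternatives each.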
